A study of Mus musculus with 12 samples.

Results

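The genes described here encode the 3 large families of phase II conjugation enzymes of the mouse liver, the UDP-glucuronosyltransferases (UGT), the cytosolic sulfotransferases (SULT) and the glutathione S-transferases (GST). They were taken from the gene table by symbol, as every gene whose name begins with Ugt1, Ugt2, Ugt3, Sult, Gsta, Gstm, Gstp, Gstt, Gstk, Gsto or Gstz and goes on with its family letter or number. Of the 24795 genes of the table, 63 fitted this description, and 42 of them had 10 or more counts in at least 3 libraries. RNA-Seq was performed on livers of male mice of both genotypes, Scly KO mice, which lack selenocysteine lyase and were kept as a homozygous colony, and C57BL/6N wild-type (WT) mice, which were bred separately in-house. The animals ate a diet with either 0.08 ppm (low, LS) or 0.25 ppm (adequate, MS) of selenium, given as sodium selenite, for at least 8 weeks from weaning. The 12 libraries fall into 4 groups of 3, named KO LS (S10, S11 and S12), KO MS (S7, S8 and S9), WT LS (S1, S2 and S3) and WT MS (S4, S5 and S6). Because the genotypes came from separate colonies, genotype and colony cannot be told apart. The labels do not state that each library is a separate mouse, so the p-values reflect variation among libraries that may be technical.

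Phase II enzymes attach a polar group to drugs, hormones, bile pigments and reactive metabolites, so that the product can be excreted in bile or urine. UGTs sit in the endoplasmic reticulum and take glucuronic acid from UDP-glucuronic acid, SULTs are cytosolic and take sulfate from PAPS, and GSTs add glutathione to electrophiles. Several alpha-class GSTs also reduce lipid peroxides without selenium, and GST activity is known to be raised in the livers of rodents with severe selenium deficiency.

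The deposited values are estimated counts per gene, which were normalized by the trimmed mean of M values (TMM) and are given here as CPM, the share of a library's normalized total scaled to 1000000 counts. Total counts ranged from 10024908 to 11762165 in KO LS, from 7856891 to 9651901 in KO MS, from 4797067 to 8901293 in WT LS and from 7561008 to 9291902 in WT MS. Scly itself was at 4.84 to 5.1 CPM in KO LS, against 73.1 to 83.1 CPM in WT LS, and at 6.32 to 6.9 CPM in KO MS, against 88.3 to 105 CPM in WT MS. Of the liver cell markers, 14 hepatocyte genes were all detected. S12, a KO LS library, stood apart. Its hepatocyte markers summed to 94637 CPM, the lowest of the 12, and its 13 bile duct markers to 341 CPM, against 35.3 to 54.6 CPM in the other 11 libraries, with 12 of the 13 highest in S12. Its sums were also the highest for stellate (1003 against at most 769 CPM), neutrophil (10.7 against at most 4.14) and adipocyte markers (72.1 against at most 11.2, with Adipoq, Lep and Retn at 0). Of the detected markers, however, only 5 of 10 stellate, 4 of 7 neutrophil and 1 of 3 adipocyte genes were highest or tied in S12. Beside the low-selenium results, Kupffer cell markers summed to 287 to 296 CPM in KO LS, against 322 to 515 CPM in WT LS, and endothelial markers to 410 to 512 CPM in KO LS, against 581 to 715 CPM in WT LS, and their part in those results was not tested. The mean Spearman correlation of S12 with the other libraries was 0.873, the lowest, and its TMM factor of 1.54 was the highest. In S7 and S8, both of KO MS, 16.99% and 19.86% of counts were from the ribosomal RNA precursor Rn45s, against at most 9.23% in any other library. Results are therefore also given without S12, and without S7 and S8 where they turn on these. In bulk RNA, fewer cells of a type and less RNA per cell cannot be told apart.

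The 42 genes took between 0.689% of all counts in S12 and 1.5% in S7. Of their summed CPM, the 8 UGT2 genes made up 36.7%, the 7 SULT genes 14.7%, the 3 GST pi genes 11%, the 4 GST alpha genes 9.28%, Gstz1 alone 7.5%, the 5 UGT1A genes 6.47% and the 7 GST mu genes 5.97%. Levels per kilobase of transcript are given as TPM, which is CPM per kilobase rescaled to a total of 1000000 in each library. By this measure Gstp1, the pi-class enzyme that is known to be more abundant in male than in female mouse liver, was the highest. Its mean was 3344 TPM over the 12 libraries. Ugt2b5 followed with 1429, Sult2a8, a bile acid sulfotransferase, with 1262, Ugt2b36 with 1044 and Gstm1 with 930 TPM. The order depends on the transcript length used, and with the median in place of the longest transcript Ugt2b36 (1148) stood above Ugt2b5 (668 TPM). Across libraries the levels overlapped widely, from 1743 to 5241 TPM for Gstp1 and from 780 to 2908 TPM for Ugt2b5. At the low end stood Sult5a1, an enzyme without a known main substrate, with 1.34 TPM. The steadiest member was the phenol sulfotransferase Sult1a1, whose highest library was 1.39 times its lowest, whereas Sult2a8 spanned 222-fold and Ugt2b38 357-fold. S12 was the lowest library for 23 members, against 25% of all genes, and the highest for 3, against 26.1%. S7 was the highest for 19, against 24.3%, while S1 was the highest for 6 and the lowest for 8, against 14.6% and 15.3%.

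**Figure D1:**
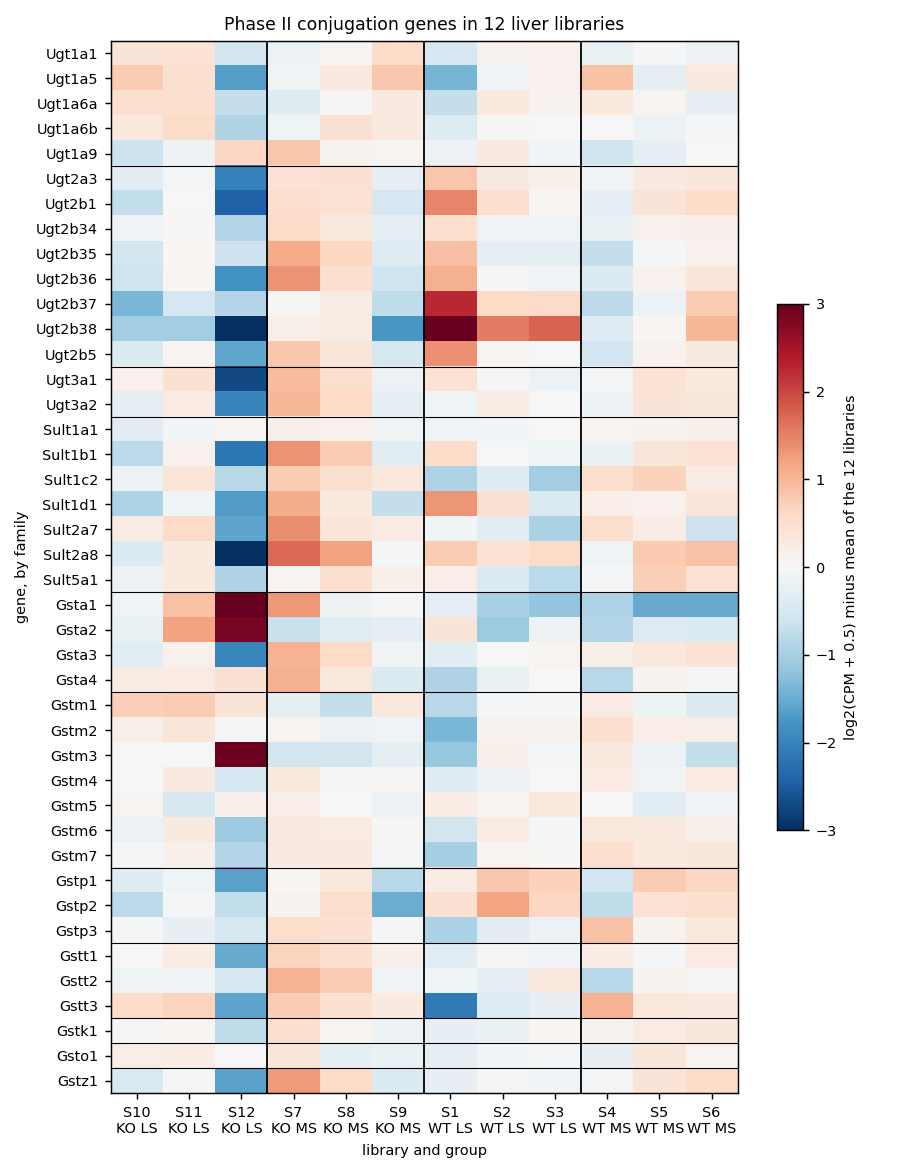
Level of the 42 genes (vertical axis, by family) in the 12 libraries (horizontal axis, by group), as log2(CPM + 0.5) minus the gene's mean over the 12 libraries, with colours limited to 3 in either direction. S12 is the lowest library for 23 of the 42 genes and the highest for Gsta1, Gsta2 and Gstm3, and S1 is the highest for 6, among them Ugt2b38.

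Of the 21 genes that were not kept, 7 had no count in any library, and 14 of the 21 were sulfotransferases. Sult3a1, an amine sulfotransferase known to be female-specific in mouse liver, had 0 counts. Sult2a1, a steroid and bile acid sulfotransferase, had 1 count in all libraries together, and the estrogen sulfotransferase Sult1e1 had 10. Just outside the minimum, Ugt1a2 reached 10 counts in 2 libraries, S10 with 10.3 and S12 with 19.2 counts. Just inside stood Gsta1, which reached 10 counts in 3 libraries, with 21.7 counts in S11, 567 in S12 and 22.2 in S7. All 3 are KO libraries, so Gsta1 was kept through the groups in which it was high. All 42 members were among the 12009 genes tested.

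Many members are near-copies of each other, and the counting method splits ambiguous reads among them by estimation. In the longest transcript of each member, the share of 100-base stretches that also occur in a transcript of another gene was 0% for 22 members and above 10% for 12. It was 81.8% for Gsta1, whose closest match was Gm3776, and 35% for Gsta2. Gstp1 and Gstp2 shared 52.8% of the stretches of Gstp1, and Ugt2b38 shared 24.2% of its own with Ugt2b5. The UGT1A enzymes are made from alternative first exons joined to common later exons, and their shares ran from 35.1% in Ugt1a6a to 71.5% in Ugt1a6b. Values of single members of these groups are therefore uncertain, while Ugt2b37 (1.06%), Ugt2b1 (0%), Gstm1 (7.73%) and Sult2a8 (0%) shared little or nothing.

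Promoters were taken from RefSeq (GRCm38.p6, the build of the deposited positions), from 250 bases before to 50 bases after each start, and were found for 37 of the 42 genes, in 46 windows. The core of the site of HNF1, a liver transcription factor (GTTAAT, sought on both strands), was in 8 of the 46 windows (17.4%), against 2332 of all 32851 mouse windows (7.1%). These were windows of Gsta3, Sult1a1, Sult1d1, Ugt1a1, Ugt1a6a, Ugt1a9, Ugt2a3 and Ugt3a1. The core of the antioxidant response element bound by NRF2 (TGACNNNGC) was in 6.52% of member windows, those of Gsta3, Gstm5 and Gstm7, against 12.4% of all. The core bound by the aryl hydrocarbon receptor (GCGTG) was in 21.7% against 32.4%, the half-site of PXR and CAR (AGTTCA) in 15.2% against 14%, and the TATA box (TATAAA) in 17.4% against 13.6%. A match is a description of the letters and not a shown binding site. The promoters of Ugt1a1, which conjugates bilirubin (chr1:88211709-88211958, plus strand), and of Ugt2a3, known in humans for conjugating bile acids (chr5:87337196-87337445, minus strand), are printed with the HNF1 core in capitals, because both carry it close to the start, Ugt1a1 1 time and Ugt2a3 2 times.
Ugt1a1: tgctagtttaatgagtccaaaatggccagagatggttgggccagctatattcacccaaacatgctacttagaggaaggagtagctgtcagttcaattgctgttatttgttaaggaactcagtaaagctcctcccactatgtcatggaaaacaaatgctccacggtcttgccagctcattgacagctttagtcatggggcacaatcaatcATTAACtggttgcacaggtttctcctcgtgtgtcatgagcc
Ugt2a3: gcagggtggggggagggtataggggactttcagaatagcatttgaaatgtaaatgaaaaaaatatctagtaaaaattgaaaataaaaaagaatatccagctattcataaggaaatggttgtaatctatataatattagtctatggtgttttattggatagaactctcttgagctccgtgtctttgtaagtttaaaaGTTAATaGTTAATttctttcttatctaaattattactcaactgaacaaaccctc

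On low selenium, all 8 UGT2 genes had a log2 fold change of KO LS over WT LS below 0, but the libraries of 4 of them, Ugt2b5, Ugt2b34, Ugt2b35 and Ugt2b36, overlapped between the genotypes. The median of the 8 was -1.08, against 0.06 over all 12009 genes, of which 54.2% were above 0. None of the 42 members passed an adjusted p of 0.05 in edgeR, which called 1 gene in all, Scly (0.00833%). At an unadjusted p under 0.05 there were 12 members, 4 higher and 8 lower, against 11.2% of all genes (5.47% lower), and 5 of the 8 lower ones were UGT2 genes. DESeq2 and limma-voom each called 2 members, Ugt2b38 and Ugt2b37, both lower, against 0.391% and 0.749% of all genes in either direction and 0.158% and 0.325% lower.

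Ugt2b38 had 5.42, 5.39 and 0.334 CPM in KO LS, against 119, 34.5 and 39.8 CPM in WT LS. Every KO LS library was below every WT LS library, and S12 and S1 were the extremes of their groups. The log2 fold change was -4.15 in edgeR (standard error, SE, 0.849, adjusted p = 0.334). It was -4.15 in DESeq2 (adjusted p = 0.007) and -3.08 in limma-voom (adjusted p = 0.0138). In edgeR it was -3.6 without S12 and -3.37 without S1. Ugt2b37 had 1.08, 2.41 and 1.73 CPM in KO LS, against 19.3, 5.75 and 5.68 CPM in WT LS. The groups did not overlap, and the log2 fold change was -2.52 in edgeR (SE 0.581, adjusted p = 0.342). It was -2.58 in DESeq2 (adjusted p = 0.00739) and -2.01 in limma-voom (adjusted p = 0.0474). In edgeR it was -2.54 without S12 and -1.72 without S1.

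Ugt2b38 and Ugt2b37 are both on the minus strand of chromosome 5. Of the 666 pairs of member promoters theirs were the most alike, with 84.8% identity over the 250 bases before the start. The median over all pairs was 45.7%. The likeness was not particular to this pair. The promoter of Ugt2b5, which no tool called in KO LS against WT LS, was 81.5% identical to that of Ugt2b38 and 72.6% to that of Ugt2b37. The promoters of Ugt2b38 (chr5:87424204-87424453) and Ugt2b37 (chr5:87254789-87255038), both on the minus strand, are printed, because these are the 2 members called by DESeq2 and limma-voom. Capitals mark the bases for which the aligned partner has another base or none.
Ugt2b38: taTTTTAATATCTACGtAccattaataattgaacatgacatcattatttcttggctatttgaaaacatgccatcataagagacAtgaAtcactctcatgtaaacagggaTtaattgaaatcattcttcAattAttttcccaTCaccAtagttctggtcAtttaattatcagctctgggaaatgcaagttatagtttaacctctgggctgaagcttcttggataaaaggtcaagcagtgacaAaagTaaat
Ugt2b37: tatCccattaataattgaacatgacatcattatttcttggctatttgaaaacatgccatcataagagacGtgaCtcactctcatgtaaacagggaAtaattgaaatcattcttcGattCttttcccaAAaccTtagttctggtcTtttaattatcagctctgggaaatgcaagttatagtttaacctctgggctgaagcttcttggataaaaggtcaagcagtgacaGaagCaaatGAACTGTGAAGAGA

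The other UGT2 genes were far more abundant. Ugt2b1, known in rats for conjugating morphine and bisphenol A, had 381, 643 and 117 CPM in KO LS, against 1758, 907 and 661 CPM in WT LS. The groups did not overlap, but S11 and S3 lay close to each other, and the log2 fold change of -1.54 (SE 0.546) had an adjusted p of 0.439 in edgeR. Ugt2a3 had 313, 373 and 95.1 CPM in KO LS, against 697, 470 and 435 CPM in WT LS, also without overlap. Ugt2b5, the UGT2 gene with the highest TPM by its longest transcript, had 897, 1260 and 402 CPM in KO LS, against 3100, 1240 and 1209 CPM in WT LS. Its groups overlapped, and its log2 fold change of -1.12 became -0.53 without S1. Ugt2b34, Ugt2b35 and Ugt2b36 had log2 fold changes of -0.39, -0.57 and -1.03, none with an unadjusted p under 0.05. Without S12 all 8 genes were still below 0 with a median of -0.75, and 4 had an unadjusted p under 0.05. Without S1 the median was -0.68, and 2 did.

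In the pi class, Gstp1 had 950, 1114 and 397 CPM in KO LS, against 1431, 2139 and 1978 CPM in WT LS. All 3 KO LS libraries were lower, at -1.17 on the log2 scale (SE 0.457, adjusted p = 0.439 in edgeR) and of -0.87 without S12. Gstp2 had 4.88, 8.47 and 5.06 CPM in KO LS, against 12.3, 20.8 and 13.9 CPM in WT LS, with a log2 fold change of -1.36. It shares reads with Gstp1, so the pair is not 2 separate observations. Gstp3, which shares no stretch with either, had 14.2, 12.1 and 9.96 CPM in KO LS, against 7.29, 11.5 and 12.7 CPM in WT LS, and its groups overlapped. Beside these, of 29 tested genes listed as higher in male mouse liver, 27 had a log2 fold change below 0 in this comparison, with a median of -1.14, or -0.75 without S12. Of 15 listed as higher in female liver, 12 were above 0, with a median of 0.82. The part of sex-dependent expression in the UGT2 and pi values was not tested.

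Among the sulfotransferases, Sult1d1, which is known for sulfating catecholamines, had 104, 180 and 62 CPM in KO LS, against 496, 273 and 147 CPM in WT LS. The groups overlapped, with a log2 fold change of -1.40 (adjusted p = 0.439 in edgeR), and of -0.87 without S1. Sult2a8 had 720, 1179 and 14 CPM in KO LS, against 1631, 1295 and 1438 CPM in WT LS. Every KO LS library was lower than every WT LS library, S12 by far the lowest, and the log2 fold change was -1.19 (adjusted p = 0.547 in edgeR) with S12 and -0.64 without it. Sult1a1 had 130, 153 and 167 CPM in KO LS, against 148, 152 and 161 CPM in WT LS. Sult1c2 had 7.23, 10.9 and 4.45 CPM in KO LS, against 4.1, 6.33 and 3.74 CPM in WT LS, and without S12 its groups did not overlap. Of the 7 SULT genes, 3 were above and 4 below 0.

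The UGT1A genes, which include the enzymes for bilirubin and for planar phenols, were not lower in KO LS as a family. Ugt1a1 had 570, 581 and 301 CPM in KO LS, against 311, 473 and 480 CPM in WT LS. The groups overlapped, and S12 and S1 were the lowest of their groups. All 5 UGT1A genes had a log2 fold change above 0, from 0.03 for Ugt1a9 to 0.51 for Ugt1a5, none with an unadjusted p under 0.05. The direction turned for Ugt1a9 without S12 (-0.41), without S3 (-0.02) and with limma-voom (-0.50), for Ugt1a9 (-0.06) and Ugt1a6a (-0.02) without S1, and for Ugt1a6b (-0.06) without S11. Without S12, Ugt1a1, Ugt1a5, Ugt1a6a and Ugt1a6b did not overlap between the groups, as was so for 36.3% of all genes. Their values share the reads of the common exons.

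Gsta1 and Gsta2, alpha-class enzymes known to be inducible by electrophiles, were highest in S12. Gsta1 had 0.814, 2.12 and 31.6 CPM in KO LS, against 0.683, 0.23 and 0.139 CPM in WT LS. In counts this is 598 in the 3 KO LS libraries together, of which S12 gave 567, against 7 in WT LS. The log2 fold change was 5.20 (SE 1.36, adjusted p = 0.439 in edgeR) with S12 and 2.19 without it. As Gsta1 met the count minimum only through KO libraries, these values are a description. So is its place in any count of members higher in KO. Gm3776, which shares most of its sequence with Gsta1, had 489 counts in S12 and at most 6.37 in any other library. Gsta2 had 2.08, 6.45 and 21.3 CPM in KO LS, against 3.41, 0.92 and 2.22 CPM in WT LS. Its groups overlapped, and its log2 fold change of 2.27 became 1.02 without S12. The most abundant alpha enzyme, Gsta3, which is known to detoxify aflatoxin epoxide in the mouse, had 813, 1121 and 259 CPM in KO LS, against 801, 1012 and 1080 CPM in WT LS. Here S12 was the lowest of all 12 libraries, opposite to Gsta1 and Gsta2. Gsta4, the enzyme for the lipid peroxidation product hydroxynonenal, had 38.2, 38.9 and 45 CPM in KO LS, against 17.3, 28.1 and 32.8 CPM in WT LS. Its groups did not overlap, with a log2 fold change of 0.64 and an unadjusted edgeR p of 0.105. S12 was also the library with the highest bile duct markers, whose part in the Gsta1 and Gsta2 values was not tested.

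The promoters of Gsta1 (chr9:78230419-78230668, plus strand) and Gsta2 (chr9:78347146-78347395, minus strand) were 70.5% identical. They are printed, with capitals where the aligned partner has another base or none, because both genes were highest in the same library.
Gsta1: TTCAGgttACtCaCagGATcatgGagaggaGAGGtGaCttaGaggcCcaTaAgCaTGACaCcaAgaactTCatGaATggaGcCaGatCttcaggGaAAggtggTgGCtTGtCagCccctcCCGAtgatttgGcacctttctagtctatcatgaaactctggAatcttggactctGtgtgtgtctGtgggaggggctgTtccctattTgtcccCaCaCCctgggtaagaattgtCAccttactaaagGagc
Gsta2: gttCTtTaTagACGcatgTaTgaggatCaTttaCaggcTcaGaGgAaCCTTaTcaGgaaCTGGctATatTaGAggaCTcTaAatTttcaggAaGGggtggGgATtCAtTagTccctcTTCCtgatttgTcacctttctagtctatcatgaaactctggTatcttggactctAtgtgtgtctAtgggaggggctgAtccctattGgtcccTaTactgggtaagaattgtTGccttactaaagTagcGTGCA

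In the mu class, Gstm1, its most abundant enzyme, had 829, 845 and 658 CPM in KO LS, against 282, 489 and 492 CPM in WT LS. All 3 KO LS libraries were higher, at 0.88 on the log2 scale (SE 0.328, adjusted p = 0.439 in edgeR), of 0.97 without S12 and of 0.66 without S1. Gstm3 had 17, 16.8 and 132 CPM in KO LS, against 7.29, 18.6 and 16.2 CPM in WT LS. Its log2 fold change of 1.96 rested on S12 and was 0.22 without it. Gstm2, Gstm4, Gstm5, Gstm6 and Gstm7 had log2 fold changes from -0.28 to 0.41, and Gstk1, Gsto1 and Gstz1 from -0.46 to 0.29, none with an unadjusted p under 0.05. The sign for Gstm4, Gstm5, Gstm6, Gstm7 and Gstk1 turned with at least 1 library left out or another setting. Counting every member, the KO LS and WT LS libraries did not overlap for 11 of the 42, 4 higher and 7 lower, against 24.9% of all genes. Without S12 there were 21, against 36.3%, and 11 members had an unadjusted p under 0.05, 6 higher and 5 lower, against 5.79%.

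**Figure D2:**
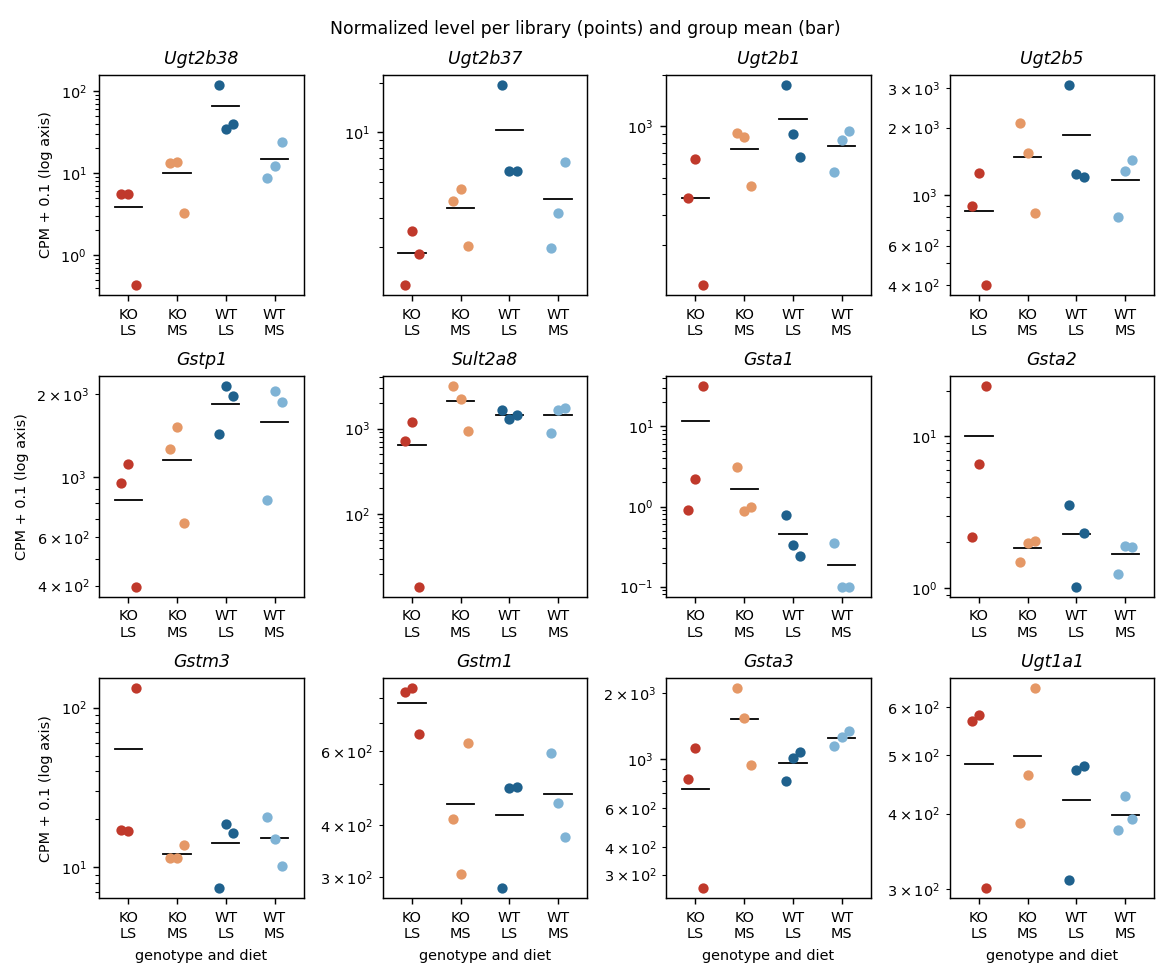
CPM + 0.1 on a log axis in each library (points) of KO LS, KO MS, WT LS and WT MS (left to right), with the group mean as a bar, for 12 members. Ugt2b38 lies between 0.334 and 5.42 CPM in KO LS and between 34.5 and 119 CPM in WT LS, and the high Gsta1, Gsta2 and Gstm3 point of KO LS is S12 in each case.

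On adequate selenium, KO MS was compared with WT MS. No member was called by edgeR or DESeq2, against 0.00833% and 0.025% of all genes. At an unadjusted p under 0.05 there were 2, both higher, against 0.924% of all genes (0.516% higher), and limma-voom called 3, Gstt2, Gsta1 and Ugt1a6b, all higher, against 7.54% (2.53% higher). Gstt2, a theta-class enzyme, had 136, 112 and 61.7 CPM in KO MS, against 36.7, 70.5 and 64.1 CPM in WT MS. S7 and S8 were the high libraries and S9 lay within the WT MS range, at 0.85 on the log2 scale (SE 0.319) and an adjusted p of 0.999 in edgeR and 0.0204 in limma-voom. Gsta1 had 3.04, 0.784 and 0.876 CPM in KO MS, against 0.252, 0 and 0 CPM in WT MS. This is 36 against 2 counts, and S7 alone gave 22.2 of the 36. The ratio per total count was 17.1, with an exact 95% interval of 4.4 to 147. The interval holds counting error only and leaves out the spread between libraries. Gsta1 met the count minimum only through KO libraries. Its ratio, its limma-voom call and its place in the counts of higher members are therefore given as a description, and nothing is read from them. The fitted log2 fold change, 4.07 in edgeR (adjusted p = 0.999) and 3.67 in limma-voom (adjusted p = 0.0175), depends on the prior count added to such low values. Ugt1a6b had 157, 238 and 211 CPM in KO MS, against 174, 154 and 167 CPM in WT MS, so its groups overlapped. Its log2 fold change was 0.29 in edgeR and 0.53 in limma-voom (adjusted p = 0.0368 in limma-voom). Ugt1a9 had 72.2, 43.3 and 42.8 CPM in KO MS, against 26.7, 33.2 and 40.7 CPM in WT MS, without overlap.

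The UGT2 genes were not uniformly low in KO MS. Of the 8, 3 had a log2 fold change below 0, with a median of 0.13. Ugt2b38 had 13.1, 13.6 and 3.11 CPM in KO MS, against 8.68, 12.1 and 23.6 CPM in WT MS, and its log2 fold change was -0.59 (95% interval -2.24 to 1.07). S7 and S8, the libraries with the most Rn45s, held the higher UGT2 values of their group. Their summed UGT2 level was 7484 and 5513 CPM, against 2984 CPM in S9, and without S7 and S8 all 8 UGT2 genes were below 0 in KO MS against WT MS, with a median of -0.58. KO MS was then represented by S9 alone, and its spread was taken from the remaining groups. Gstp1 had 1261, 1524 and 679 CPM in KO MS, against 823, 2057 and 1880 CPM in WT MS, which overlap. In all, 4 of the 42 members did not overlap between KO MS and WT MS, against 4.72% of all genes.

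**Figure D3:**
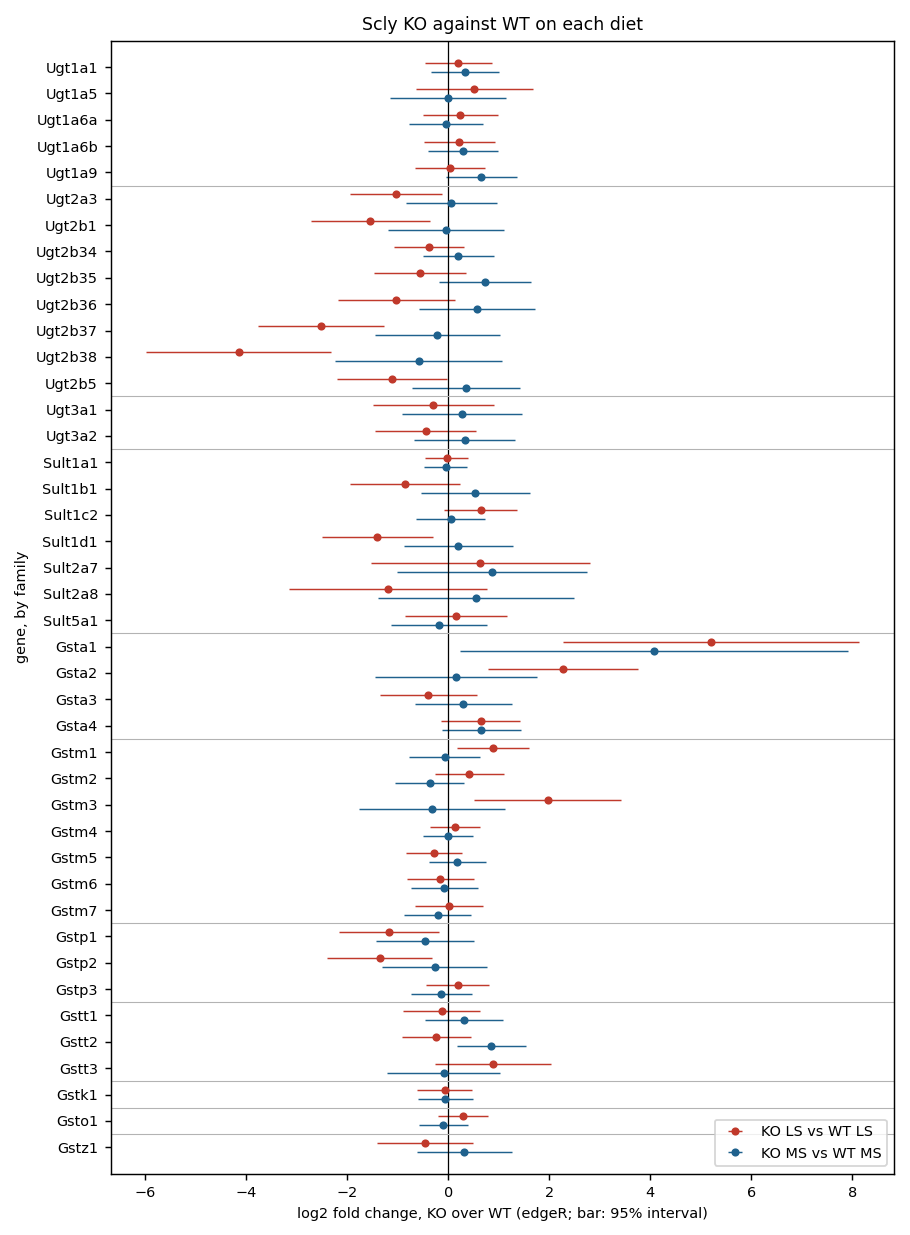
Log2 fold change from edgeR (horizontal axis; bars are 95% intervals) of each gene (vertical axis, by family) for KO LS over WT LS and KO MS over WT MS. The 8 UGT2 genes lie below 0 on low selenium, down to -4.15 for Ugt2b38, and on both sides of 0 on adequate selenium, while Gsta1 lies above 0 on both diets.

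Averaged over both diets, Gsta1 was the only one of the 42 members for which every KO library was above every WT library (0.108% of all genes, and 0.192% in either direction). It met the count minimum only through KO libraries, so its genotype values and calls are given as a description and nothing is read from them. The margin was small, 0.784 CPM in S8 against 0.683 CPM in S1. Its log2 fold change was 4.63 in edgeR (SE 1.1, adjusted p = 0.461), 4.68 in DESeq2 (adjusted p = 0.0185) and 3.06 in limma-voom (adjusted p = 0.0205). In edgeR it was 3.11 without S12. The members called numbered 0 in edgeR (0.00833% of all genes), 1 in DESeq2 (0.225%) and 2 in limma-voom (0.566%). Gsta1 was the member called by DESeq2 and 1 of the 2 called by limma-voom, so these counts are a description too. The other limma-voom call was Ugt2b38. The log2 fold change of Ugt2b38 was -2.37 in edgeR and -1.60 in limma-voom (adjusted p = 0.0296 in limma-voom). At an unadjusted p under 0.05 there were 7, against 3.74% of all genes, with Gsta1, Gsta2 and Gsta4 higher and Ugt2b37, Ugt2b38, Gstp1 and Gstp2 lower. Gsta4 had 38.2, 38.9 and 45 CPM in KO LS and 69.1, 40.6 and 24 CPM in KO MS, against 17.3, 28.1 and 32.8 CPM in WT LS and 18, 35.1 and 31.7 CPM in WT MS, with a log2 fold change of 0.65 (adjusted p = 1 in edgeR).

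Within Scly KO mice, low selenium went with lower values of most members, 35 of the 42 below 0 (53.3% of all genes lay above it), and their median was -0.50 on the log2 scale, against 0.06 over all genes. Without S12 there were 32 below 0, with a median of -0.28. Without S7 and S8 there were 27, with a median of -0.08, and with a length and GC trend removed 25, with a median of -0.11. No member was called by edgeR or DESeq2 (0% and 1.07% of all genes), although DESeq2 gave no adjusted p for 17 members here. At an unadjusted p under 0.05 there were 11 members, 4 higher and 7 lower, against 21.9% of all genes. Without S7 there were 3, all higher, against 5.44%. Without S8 there were 6, 2 higher and 4 lower, against 11.2%. Without S12 there were 7, 2 higher and 5 lower, against 11%. Without S9 there were 17, 3 higher and 14 lower, against 44.7%. With all libraries, limma-voom called 22, of which 20 were lower, against 49.9% of all genes (23% lower). Without S9, edgeR called 10 members and 3979 genes.

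In this comparison Sult1b1, known for sulfating thyroid hormone, had 18.7, 35.9 and 6.85 CPM in KO LS, against 84.2, 56.2 and 26.2 CPM in KO MS. The groups overlapped, with a log2 fold change of -1.44 in edgeR (adjusted p = 0.201) and -1.32 in limma-voom (adjusted p = 0.00101). Gstz1, which is maleylacetoacetate isomerase of tyrosine breakdown, had 620, 829 and 278 CPM in KO LS, against 2067, 1253 and 640 CPM in KO MS, with a log2 fold change of -1.20. Gstt2 had 59.8, 60 and 45.4 CPM in KO LS, below all of the 136, 112 and 61.7 CPM in KO MS. S7 was the highest KO MS library for Sult1b1, Gstz1 and Gstt2. Gstm1 was opposite to these, with 829, 845 and 658 CPM in KO LS, against 412, 306 and 627 CPM in KO MS. Its log2 fold change was 0.79 in edgeR (adjusted p = 0.21) and 1.38 in limma-voom (adjusted p = 0.000228). Gsta2 had 2.08, 6.45 and 21.3 CPM in KO LS, against 1.38, 1.88 and 1.95 CPM in KO MS, above in all 3 libraries, with a log2 fold change of 2.52, or 1.27 without S12. The sign for Gsta1 depended on S12, at 2.90 with it and -0.09 without it. In all 4 members did not overlap, against 10.9% of all genes. All 8 UGT2 genes were below 0, with a median of -0.92, but without S7 and S8 4 of the 8 were, with a median of 0.0018.

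Within WT mice, no member was called by edgeR, DESeq2 or limma-voom, against 0%, 0.0167% and 0.15% of all genes, and 5 had an unadjusted edgeR p under 0.05, against 2.29%. Sult1c2 had 4.1, 6.33 and 3.74 CPM in WT LS, against 12.1, 13.6 and 9.71 CPM in WT MS. All 3 WT LS libraries were lower, at -1.30 on the log2 scale (SE 0.337, adjusted p = 1 in edgeR and 0.0558 in limma-voom). The pi-class Gstp3 had 7.29, 11.5 and 12.7 CPM in WT LS, against 27.0, 15.8 and 18.1 CPM in WT MS, and the theta-class Gstt3 had 7.29, 25.3 and 27.8 CPM in WT LS, against 69.7, 41.8 and 40.6 CPM in WT MS, both without overlap. Ugt2b38 was higher in all 3 libraries, with 119, 34.5 and 39.8 CPM in WT LS, against 8.68, 12.1 and 23.6 CPM in WT MS, and a log2 fold change of 2.12, or 1.33 without S1. The 8 UGT2 genes were all above 0, with a median of 0.46, but without S1 their median was 0.02 and 3 were below 0. In all, 10 members did not overlap, 2 higher and 8 lower, against 11.7% of all genes.

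The difference between the genotype effects on the 2 diets was tested as an interaction. edgeR and DESeq2 called 0 members (0% of all genes in both), and 6 had an unadjusted edgeR p under 0.05, against 6.73%. limma-voom called 7, against 17.3%. For Ugt2b38 the interaction was -3.56 on the log2 scale in edgeR (SE 1.11, adjusted p = 0.65) and -2.97 in limma-voom (adjusted p = 0.0141). For Ugt2b37 it was -2.30 in edgeR (SE 0.81, adjusted p = 0.65) and -2.24 in limma-voom (adjusted p = 0.0207). In edgeR without S1 the interactions were -2.79 and -1.51. All 8 UGT2 genes had an interaction below 0, also without S12, without S1, and without S7 and S8, but in the last of these no member had an unadjusted p under 0.05.

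**Figure D4:**
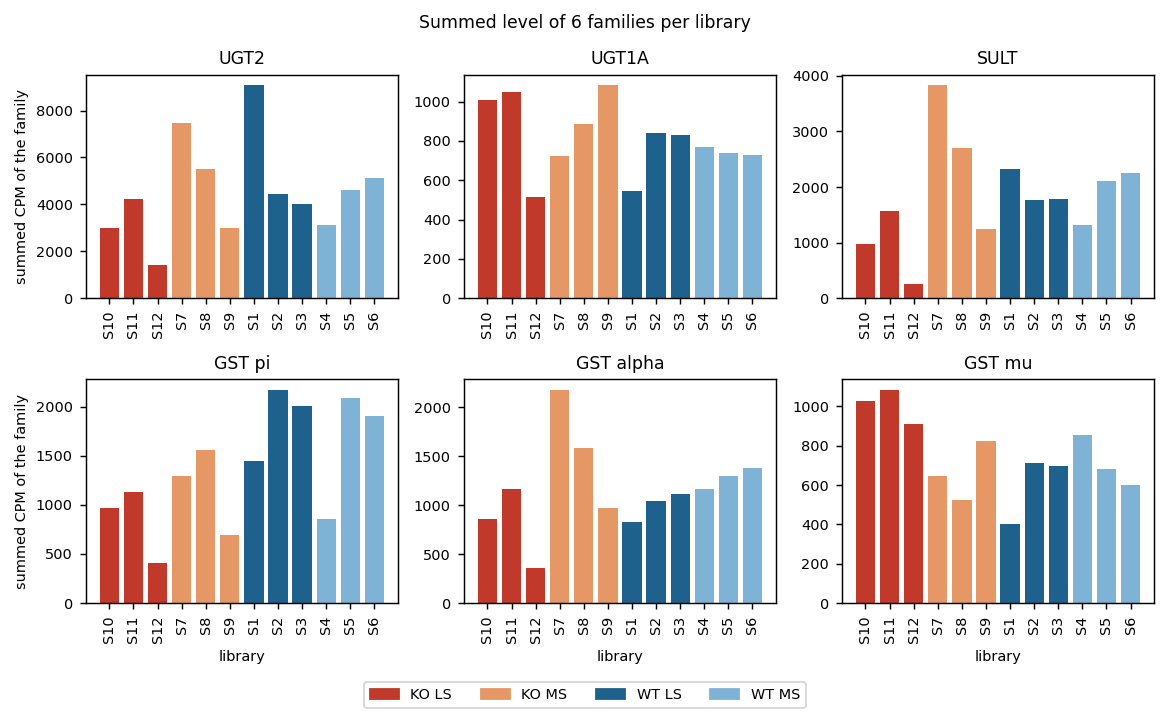
Summed CPM of the tested genes of 6 families (vertical axes, from 0) in each library (horizontal axes, coloured by group). The UGT2 sum is 1436 CPM in S12 and 9080 CPM in S1, the lowest and highest of the 12, and the GST mu sum is above 900 CPM only in the 3 KO LS libraries.

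By family sums, GST mu was at 1028, 1084 and 910 CPM in KO LS, against 403, 710 and 698 CPM in WT LS, and at 644, 523 and 824 CPM in KO MS, against 857, 681 and 602 CPM in WT MS. On low selenium every KO LS library was above every WT LS library, S12 included. The SULT sum was 983, 1564 and 255 CPM in KO LS, against 2330, 1762 and 1781 CPM in WT LS, and in every library but S12 most of it was Sult2a8. The UGT1A sum was 1009, 1050 and 517 CPM in KO LS, against 544, 839 and 828 CPM in WT LS. These sums are descriptions, and no test was made of them.

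**Figure D5:**
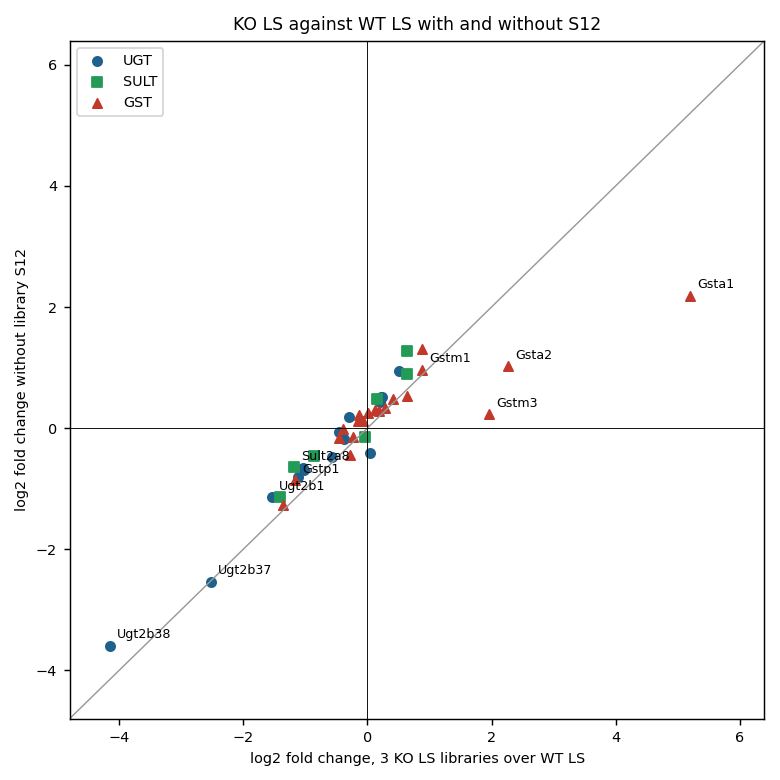
Log2 fold change of KO LS over WT LS for each of the 42 genes with all 3 KO LS libraries (horizontal axis) and without S12 (vertical axis), with the line of equal values. Gsta1, Gsta2 and Gstm3 lie far below the line, at 5.20, 2.27 and 1.96 with S12 and 2.19, 1.02 and 0.22 without it, while Ugt2b38 and Ugt2b37 keep values under -2.5 in both.

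Genes around the conjugation reactions were read from lists. For comparison, 54.2% of all genes were above 0 in KO LS against WT LS. Of 11 genes that supply UDP-glucuronate, 7 were above 0 in KO LS against WT LS, and Ugdh, which makes UDP-glucuronic acid, had 177 ± 109 CPM in KO LS and 77.1 ± 7.42 CPM in WT LS (SD, n = 3 each), with S12 at 302 CPM. Of 14 tested genes of PAPS and sulfate supply, 7 were above 0. The PAPS transporter Slc35b2 was the 1 gene lower at an unadjusted p under 0.05, against 5.47% of all genes. Of 16 genes of glutathione synthesis and breakdown, 8 were above 0, and Gclc, the catalytic subunit of the first enzyme of glutathione synthesis, had 279 ± 57 CPM in KO LS and 175 ± 17.2 CPM in WT LS (SD, n = 3 each). Of 29 other phase II enzymes, 6 were above 0, with a median of -0.23, or 0.02 without S12. Of 17 transporters of conjugates, DESeq2 called 2, both higher, against 0.391% of all genes (0.233% higher). These were Abcc3, which exports glucuronides into blood, and Abcb1a, the drug efflux pump. Their log2 fold changes were 1.39 (adjusted p = 0.0212 in DESeq2) and 2.90 (adjusted p = 0.00326 in DESeq2). Neither was called by edgeR. In the study's qPCR of male livers, the mean of both was lower in KO than in WT on low selenium. On adequate selenium it was higher in KO.

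Of the regulators, Nfe2l2, which encodes NRF2, had 63.7 ± 9.82 CPM in KO LS and 55.6 ± 1.3 CPM in WT LS (SD, n = 3 each), and Nr1i2, which encodes PXR, had 52.6 ± 15.8 CPM in KO LS and 47.5 ± 4.16 CPM in WT LS (SD, n = 3 each), neither with an unadjusted p under 0.05. Of 18 tested sentinel targets of NRF2, 12 were above 0, against 54.2% of all genes. Their median was 0.55, or 0.34 without S12. Of these targets, 9 were higher at an unadjusted p under 0.05, against 5.78% of all genes, although edgeR and DESeq2 called 0. Nqo1, the quinone reductase, had 8.19 ± 3.02 CPM in KO LS and 3.76 ± 1.33 CPM in WT LS (SD, n = 3 each). Of 17 targets of PXR and CAR, 13 were above 0 with a median of 0.28, and DESeq2 called 3, against 0.391% of all genes, Abcc3, Abcb1a and Cyp2b9, a P450 that is also on the list of genes higher in female liver. On adequate selenium the medians of the NRF2 and of the PXR and CAR lists were 0.23 and 0.34. Abcc3, Abcb1a, Gclc, Ugdh and Nqo1 are among the genes on more than 1 of these lists. Their values are therefore not separate observations for each list.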

How the data were processed

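Male mouse liver poly(A) RNA was sequenced in 12 libraries. According to the study's methods, STAR aligned the reads to mm10 after Cutadapt trimming and FastQC checks, and Partek E/M assigned them to genes. Neither tool versions nor the annotation are given in the sources used. Estimated counts for each gene were deposited by the authors, of which 89.8% were whole numbers. Of the value columns, 0 were left without a group. A table of the authors' DESeq2 comparisons (fold changes and p-values) was not used.

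Counts were rounded, genes were kept by filterByExpr (minimum count 10), and 12009 genes were tested by edgeR 4.0.16 quasi-likelihood (R 4.3.3, TMM, 1 coefficient for each of the 4 groups, Benjamini-Hochberg adjustment, threshold 0.05) in 6 comparisons. Alternatives were DESeq2 1.42.0, limma-voom with quality weights (limma 3.58.1), RLE and upper-quartile factors, other count filters, unrounded counts, only the groups compared, each library left out in turn, S7 and S8 left out, Rn45s removed, a length and GC trend removed, the median transcript length, and promoter windows without the 50 bases after the start. For 1 gene in 3 against 3 libraries, p = 0.1 is the smallest that exact permutation allows. Read sharing was measured on GENCODE transcripts and promoter windows came from RefSeq. The table's gene ends lie 1 base past the last base of the gene.

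The members and lists were chosen with earlier results of these data known. Named were members called by any tool, up to 12 per comparison with the smallest edgeR p, the 2 most abundant of each family, up to 6 without overlap, well-known drug and hormone conjugating members, and members nearest the count minimum, and up to 4 genes of each other list. Other genes were named after their values were seen.

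The edgeR step was tested on simulated counts for KO MS against WT MS over 12009 genes. Of 50 genes made to differ 4-fold it recovered 34, of 50 made to differ 2-fold it recovered 6, of 50 at 8-fold 48 and of 50 at 1.5-fold 0. Of the genes called on these counts, 6 of 94 were false in edgeR, 16 of 120 in DESeq2 and 7 of 93 in limma-voom. Apart from the changed genes, all libraries were drawn from the same mean per gene. A library that stands apart in many genes at once, such as S12, was therefore not simulated. Intervals of fold changes are 95% intervals from the t distribution of the edgeR fit. Fold changes are from edgeR unless another tool is named for the fold change itself, also beside an adjusted p of DESeq2 or limma-voom.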

Additional observations from a re-analysis of the deposited data

How the results depend on the processing

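For the 66 gene results named with a fold change, 1557 alternative values were computed. Of these, 1497 kept their direction and their side of the threshold, 31 passed it where edgeR had not, and 29 reversed. One was Gsta1 in KO LS against KO MS (-0.094 without S12, the lowest of the values with a library left out, of which the highest was 3.79). The other 28 were in KO LS against WT LS, for genes with log2 fold changes between -0.28 and 0.23. With limma-voom Gstk1 was at 0.070, Gstm7 at -0.0083 and Ugt1a9 at -0.50. With the length and GC trend removed Gstk1 was at 0.15, Gstm5 at 0.13 and Gstm6 at 0.10. Gstm7 was at -0.0060 with RLE factors, -0.0059 with DESeq2, -0.0061 with only the groups compared, -0.015 without S7 and S8 and -0.0018 without Rn45s. With single libraries left out, the values ranged from -0.23 to 0.12 for Gstk1, from -0.066 to 0.29 for Gstm4, from -0.50 to 0.12 for Gstm6, from -0.27 to 0.24 for Gstm7, from -0.015 to 0.51 for Ugt1a6a, from -0.064 to 0.52 for Ugt1a6b and from -0.41 to 0.27 for Ugt1a9. The members called in KO LS against WT LS numbered 2 with DESeq2 and 2 with limma-voom, in KO MS against WT MS 3 with limma-voom, averaged over both diets 1 with DESeq2 and 2 with limma-voom, in KO LS against KO MS 22 with limma-voom, and in the interaction 7 with limma-voom. With single libraries left out, members called ranged from 0 to 10 in KO LS against KO MS (10 without S9) and stayed at 0 in the other 5 comparisons.

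Over all genes, calls in KO LS against WT LS were 3 with no filter, 47 with DESeq2, 90 with limma-voom and 2 with only the groups compared, and ranged from 1 to 6 with a library left out. In KO MS against WT MS they were 3 with DESeq2 and 905 with limma-voom. Averaged over both diets they were 4 with no filter, 27 with DESeq2 and 68 with limma-voom, and ranged from 1 to 3. In KO LS against KO MS they were 129 with DESeq2 and 5988 with limma-voom, and ranged from 0 to 3979 (3979 without S9). In WT LS against WT MS they were 2 with DESeq2 and 18 with limma-voom, and ranged from 0 to 1. In the interaction they were 2081 with limma-voom, and ranged from 0 to 3. The cause of these differences was not tested. No paired analysis was possible because the columns of the table name the group and a library number but not the replicate number of the labels.

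Depth limits Gsta1, Gsta2, Ugt2b37, Sult2a7 and Sult5a1, which had few counts in several libraries.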

Other observations

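When the dependence on length and GC content of transcripts was taken out of each library, the median of the 42 members in KO LS against KO MS was -0.11, and in KO LS against WT LS it was 0.11. All 8 UGT2 genes stayed below 0 in KO LS against WT LS, with a median of -0.66.

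Sult2a2, a sulfotransferase below the count minimum, had 14.8 counts in S12 and 1 in S11, and 0 in the other 10 libraries.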
